A study of Arabidopsis thaliana with 12 samples.

Results

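The genes described here are 10 regulators and enzymes of greening in Arabidopsis thaliana, chosen by gene identifier from the 33557 annotated features of the deposited table. They are the transcription factor genes GLK1, GLK2, GNC and CGA1, the enzyme genes HEMA1, CHLH, PORA, PORB and PORC, and GUN4, an activator of magnesium chelatase. RNA came from cultured root explants of 4 groups with 3 replicates each, 12 samples in all. The wild type was Col-0 gl1, and the other genotype was a line titled CPL4RNAi, whose genotype field reads CPL4 KO. The promoter of that construct, and whether the line is a single transformant, are not given in the sources used here. Root segments of 10-day-old seedlings were pre-incubated for 5 days on callus-inducing medium. All groups then spent 72 hours on shoot-inducing medium, which held the cytokinin 2iP at 0.05 mg/L in the treated groups and at 0 mg/L in the others, and all were 18 days old. The light regime during culture is not given in the sources used here.

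Chlorophyll is a tetrapyrrole that plastids build from 5-aminolevulinic acid (ALA). The pathway is shared with heme up to protoporphyrin IX, where magnesium chelatase starts the chlorophyll branch and ferrochelatase the heme branch. Roots make little chlorophyll, but detached Arabidopsis roots can turn green in the light, a change that cytokinin promotes and auxin holds back, with GLK2 and the light-signalling factor HY5 among its known regulators. GLK1 and GLK2 are partly redundant activators of chlorophyll synthesis and light-harvesting genes. GNC and CGA1 are GATA factors that promote greening, and CGA1 is known as a cytokinin-induced gene in seedlings.

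Each value is the authors' expression level for a group in FPKM (fragments per kilobase of transcript, scaled to the fragments mapped), which is a level per length and can be compared between genes. The table gives no values per replicate, so no spread between replicates can be shown, and the depth of each library is unknown. The labels do not say whether replicates came from separate cultures, so the p-values measure only the spread between these samples, which may be technical. A difference was called at a q-value (adjusted p-value) of 0.05 or less in the authors' deposited table. Standard errors (SE) were worked back from the deposited p-values, and they are upper limits (at most) where a p stands at the table's smallest value. Differences are log2 ratios of FPKM. Between 18155 and 18486 features reached 1 FPKM, depending on the group, and between 29.1% and 32.8% were listed at 0. CPL4, the gene named by the construct, was higher in the groups labelled CPL4RNAi, at 36.3 FPKM against 14.46 without cytokinin and 32.2 against 13.9 with it. The level of the gene goes against the label. Whether it includes transcript of the RNAi construct is not given in the sources used here and was not tested. Directions between genotypes below are therefore those of the groups as labelled. Root markers were present: 7 of 8 reached 1 FPKM in all 4 groups, and their summed level was 300.3 and 251.5 FPKM in wild type without and with cytokinin and 210.9 and 154.1 FPKM in the groups labelled CPL4RNAi. Among 8 shoot meristem and leaf markers, the leaf polarity gene YAB1 was listed at 0 in all 4 groups, and the meristem gene STM was at 0.0652 and 0.0436 FPKM in wild type and at 21.7 and 21.9 FPKM in the groups labelled CPL4RNAi. The STM difference between genotypes was called without cytokinin (8.38, SE 2.78) but not with it. The stomatal genes MUTE and FAMA were listed at 0 throughout.

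By deposited TAIR10 coordinates, HEMA1 (AT1G58290) lies on chromosome 1 at 21623726 to 21626200 and PORC (AT1G03630) on chromosome 1 at 907642 to 909376. CHLH (AT5G13630, also GUN5) lies on chromosome 5 at 4387334 to 4392227, GLK2 (AT5G44190) at 17798369 to 17800824, PORA (AT5G54190) at 21990912 to 21992812 and GNC (AT5G56860) at 22989265 to 22991467 of the same chromosome. GLK1 (AT2G20570) lies on chromosome 2 at 8855358 to 8857756, GUN4 (AT3G59400) on chromosome 3 at 21948717 to 21949710, and CGA1 (AT4G26150) and PORB (AT4G27440) on chromosome 4 at 13253210 to 13254904 and 13725546 to 13727353. All 10 are protein-coding genes. Over aligned coding bases, PORA and PORB were 83.2% identical with a longest identical run of 44 bases, PORC was 73.8% and 73.5% identical to them, GLK1 and GLK2 were 66.0% identical, and GNC and CGA1 were 75.2% identical. The longest identical run of every pair was shorter than 1 sequenced read.

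The promoters of the 3 tested members whose upstream window holds no other annotated gene are shown, because these genes differ in level and in direction between the groups. Each is the 300 bases upstream of the RefSeq gene start on TAIR10.1, 5′ to 3′ on the gene's own strand: GLK2 from chr5:17797962-17798261 (plus strand), HEMA1 from chr1:21626403-21626702 (minus strand) and CHLH from chr5:4392430-4392729 (minus strand). Capitals mark matches, on either strand, to the motifs searched: CACGTG (the G-box of light-regulated genes), CCAATC and GATTCT (linked to GLK binding), GATAAG (the I-box, of GATA type), and AGATTT and AGATCT (linked to type-B response regulators of cytokinin signalling).
GLK2: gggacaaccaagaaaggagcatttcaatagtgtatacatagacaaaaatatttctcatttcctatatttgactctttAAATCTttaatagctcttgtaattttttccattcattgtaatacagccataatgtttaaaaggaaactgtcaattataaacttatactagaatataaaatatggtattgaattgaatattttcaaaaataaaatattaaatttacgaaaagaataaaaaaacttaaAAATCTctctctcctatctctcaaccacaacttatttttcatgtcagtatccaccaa
HEMA1: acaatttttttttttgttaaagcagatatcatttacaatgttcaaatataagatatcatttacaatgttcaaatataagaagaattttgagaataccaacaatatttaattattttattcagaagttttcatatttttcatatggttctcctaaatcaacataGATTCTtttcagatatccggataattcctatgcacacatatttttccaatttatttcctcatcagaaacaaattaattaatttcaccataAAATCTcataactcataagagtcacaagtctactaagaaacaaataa
CHLH: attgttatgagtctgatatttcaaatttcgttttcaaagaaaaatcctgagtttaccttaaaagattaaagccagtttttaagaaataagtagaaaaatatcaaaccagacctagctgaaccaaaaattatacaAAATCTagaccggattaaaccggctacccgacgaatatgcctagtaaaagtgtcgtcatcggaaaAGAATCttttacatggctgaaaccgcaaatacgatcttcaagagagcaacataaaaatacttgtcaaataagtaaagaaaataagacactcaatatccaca
The GLK2 window holds AGATTT at 2 places, both on the other strand. The HEMA1 and CHLH windows each hold 1 GATTCT and 1 AGATTT match. Over the 10 members, AGATTT occurred in 7 windows, against 39.8% of all protein-coding promoters of that length, and GATTCT in 3, against 19%. CCAATC occurred in 2 (PORB and GUN4; 12.2% of all), GATAAG in 2 (3978 of 27443 promoters), AGATCT in 1 (7.21%) and CACGTG in 0 (7.09%). The PORC window held none of the motifs, and it overlaps the oppositely oriented gene AT1G03620. A match is a description of letters and does not show that a factor binds.

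Transcripts of most of these genes were near the lower end of the table in all 4 groups. Of the 10 members, 7 stayed under 1 FPKM in every group, 2 (HEMA1 and PORC) were at 1 FPKM or more in every group, and CHLH stood on both sides of that level. The authors tested 3 members in all 6 pairwise comparisons and GLK2 in 3 of them, and the other 6 were tested in none. GLK2 was tested only where wild type without cytokinin, its highest group, was one of the pair, so the 3 pairs without that group have no p-value.

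**Figure D1:**
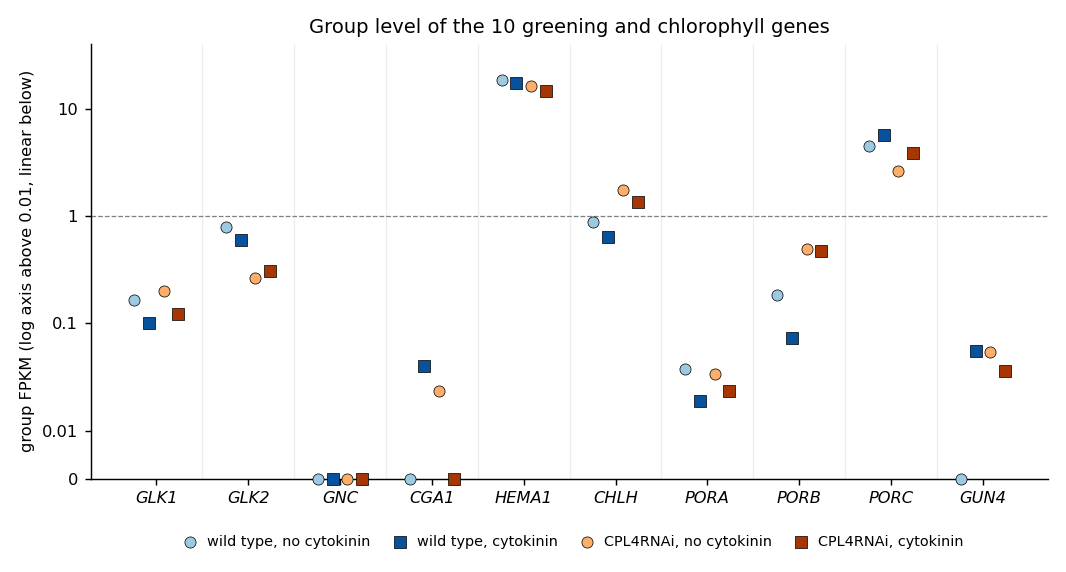
Group FPKM of the 10 genes on a logarithmic axis that is linear below 0.01, with 1 point per group (circles without cytokinin, squares with it; blue wild type, orange CPL4RNAi) and a dashed line at 1 FPKM; the points are the authors' group values and carry no error bars. HEMA1 stands between 14.6 and 18.6 FPKM, PORC between 2.60 and 5.65 and CHLH between 0.645 and 1.76, while the other 7 genes lie under 1 and GNC is listed at 0 in every group.

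Among the regulators, GLK2 had the highest level. It was at 0.791 FPKM in wild type without cytokinin, 0.594 in wild type with it, 0.267 in the group labelled CPL4RNAi without cytokinin and 0.310 in that group with it. Both wild-type values were above both CPL4RNAi values. Without cytokinin GLK2 was lower in the group labelled CPL4RNAi by a log2 difference of -1.57 (SE 0.56, 95% interval -2.67 to -0.47; deposited q = 0.017). The cytokinin effect in wild type was -0.41 (SE 0.35, 95% interval -1.11 to 0.28), which was not called. GLK1 was at 0.167 and 0.1005 FPKM in wild type without and with cytokinin, and at 0.202 and 0.124 FPKM in the groups labelled CPL4RNAi. These levels do not separate the genotypes, and the gene was not tested. GLK2 made up 82.6% and 85.5% of the summed GLK level in wild type, and 57.0% and 71.5% in the groups labelled CPL4RNAi.

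The 2 GATA factors of the set were at or near 0. GNC was listed at 0 in every group. CGA1 was listed at 0 in wild type without cytokinin and in the group labelled CPL4RNAi with it, at 0.0403 FPKM in wild type with cytokinin and at 0.0238 FPKM in the group labelled CPL4RNAi without it. Neither was tested, and no change of CGA1 with cytokinin was detectable at these levels. The 5 other B-class GATA genes examined were expressed. GATA17 and GATA17L stood between 38.5 and 61.1 FPKM, and GATA15 and GATA16 between 13.2 and 42.4 FPKM. GATA15 exceeded wild type by 0.82 (SE at most 0.20) in untreated and by 0.72 in treated CPL4RNAi, and GATA16 by 0.66 and 0.87. GATA23, a factor of lateral root founder cells, was lower, by -2.53 (SE 0.71) and -1.963 (SE at most 0.48), and GATA17L was lower without cytokinin, by -0.26 (SE 0.11; q = 0.046). With cytokinin GATA16 rose by 0.47 in the groups labelled CPL4RNAi, the 1 call of 5 there, and none of the 5 was called in wild type. Over all features 17.3% were called for cytokinin in CPL4RNAi and 10.3% in wild type.

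HEMA1 encodes glutamyl-tRNA reductase, the rate-limiting enzyme of ALA synthesis, and was the most abundant member. It had 18.6 FPKM in wild type without cytokinin, 17.3 in wild type with it, 16.3 in the group labelled CPL4RNAi without cytokinin and 14.6 in that group with it. It stood above 71.7% to 75.8% of all features, depending on the group. The whole range was 1.27-fold, and the neighbours in this order were not called apart: HEMA1 differed by -0.10 (SE 0.11) for cytokinin in wild type, by -0.09 (SE 0.12) between untreated CPL4RNAi and treated wild type, and by -0.16 (SE 0.12) for cytokinin in CPL4RNAi. The genotype differences were -0.19 (SE 0.11, 95% interval -0.41 to 0.04) without cytokinin and -0.25 (SE 0.12, interval -0.48 to -0.02; q = 0.079) with it, and neither was called. Only the 2 ends of the order, CPL4RNAi with cytokinin and wild type without, were called apart, by -0.35 (SE 0.12; deposited q = 0.0093). The second reductase gene, HEMA2, had a similar level, and HEMA1 over HEMA2 was 1.27 and 1.16 in wild type and 1.01 and 1.05 in the groups labelled CPL4RNAi.

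CHLH encodes the porphyrin-binding subunit of magnesium chelatase, at the entry of the chlorophyll branch. It was at 0.871 FPKM in wild type without cytokinin, 0.645 in wild type with it, 1.76 in the group labelled CPL4RNAi without cytokinin and 1.36 in that group with it. Both CPL4RNAi values were above both wild-type values, the opposite genotype order to that of GLK2, and within each genotype the treated group was the lower. Between genotypes CHLH differed by 1.01 (SE at most 0.25) without cytokinin and by 1.08 (SE at most 0.27) in the treated groups, higher in those labelled CPL4RNAi, a 2.02-fold and a 2.11-fold difference (q = 0.00027 in both, the smallest q in the authors' deposited table). Cytokinin went with lower CHLH values, by -0.43 (SE 0.21; q = 0.092) in wild type and -0.37 (SE 0.16; q = 0.064) in the groups labelled CPL4RNAi, and neither was called. GUN4, which binds porphyrins and stimulates magnesium chelatase, was listed at 0 in wild type without cytokinin and at 0.0559, 0.0543 and 0.0362 FPKM in wild type with it and in CPL4RNAi without and with it. It was not tested.

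The other chelatase subunits were more abundant than CHLH in every group. CHLD over CHLH was 14.2 and 19.1 in wild type without and with cytokinin, and 4.44 and 5.40 in the groups labelled CPL4RNAi. CHLD was lower in the groups labelled CPL4RNAi, from 12.4 to 7.80 FPKM without cytokinin (-0.67, SE at most 0.16) and from 12.3 to 7.35 FPKM with it (-0.75, SE at most 0.18). CHLI1, the ATPase subunit, was between 6.996 and 8.22 FPKM, with genotype differences of 0.20 and 0.17 that were not called. The ferrochelatase gene FC1, of the heme branch, stood at 36.7 to 54.2 FPKM, and its level over that of CHLH was 42.1 and 67.0 in wild type and 27.7 and 39.8 in the groups labelled CPL4RNAi.

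The POR genes encode the light-dependent reductases that turn protochlorophyllide into chlorophyllide. PORC was the main one in all groups, with 95.3% and 98.4% of the summed POR level in wild type and 83.0% and 88.6% in the groups labelled CPL4RNAi. It was at 4.50 FPKM in wild type without cytokinin, 5.65 in wild type with it, 2.60 in the group labelled CPL4RNAi without cytokinin and 3.85 in that group with it. Both wild-type values were above both CPL4RNAi values, and within each genotype the treated group was the higher. Its genotype difference was -0.79 (SE at most 0.19; q = 0.00027) without cytokinin and -0.55 (SE 0.18; q = 0.0087) in the treated groups, lower in those labelled CPL4RNAi. Cytokinin raised it by 0.57 (SE 0.21; q = 0.020 in the authors' deposited table) in the groups labelled CPL4RNAi. In wild type its cytokinin difference was 0.33 (SE 0.17, 95% interval -0.01 to 0.67; q = 0.13), which was not called.

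PORB, which is used in darkness and light, was at 0.185 and 0.0725 FPKM in wild type without and with cytokinin and at 0.498 and 0.473 FPKM in the groups labelled CPL4RNAi. The CPL4RNAi values were the higher ones, as for CHLH and unlike PORC, but the gene was not tested. PORA, known as the POR of dark-grown seedlings, was between 0.0188 and 0.0380 FPKM and was not tested. In the reference annotation PORC overlaps AT1G03620, a gene on the other strand, while their deposited loci share 0 bases. AT1G03620 went the other way from PORC between genotypes, from 6.05 to 34.7 FPKM without cytokinin and from 11.5 to 44.5 FPKM with it. The libraries were stranded, but whether the counting used the strand is not given in the sources used here, and the part of AT1G03620 in the PORC values was not tested. PORB and GUN4 each overlap a gene of the other strand in that annotation too.

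**Figure D2:**
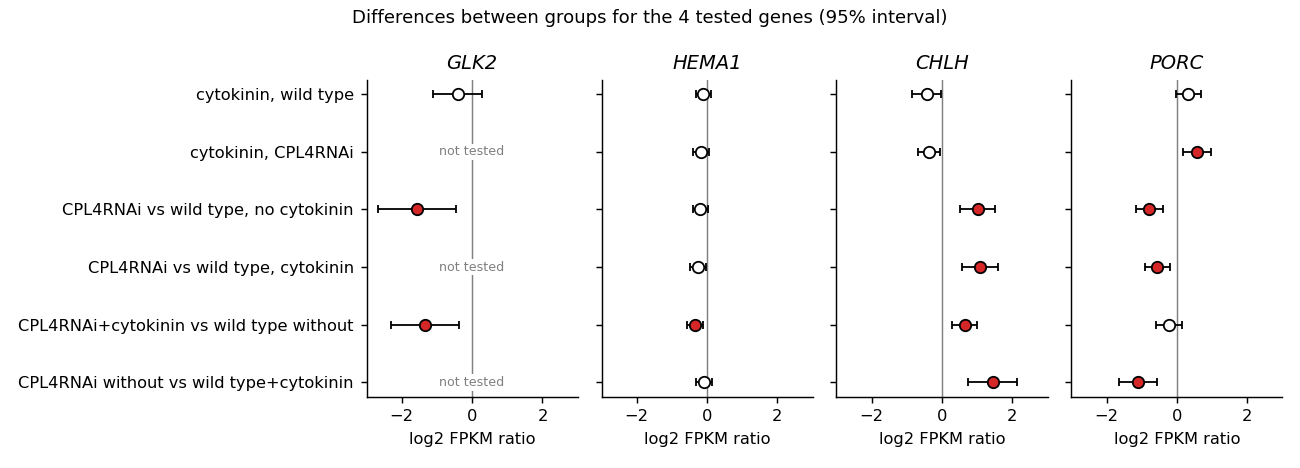
Log2 FPKM ratio of the first group over the second for the 4 tested genes (horizontal axis) in the 6 pairwise comparisons (rows), with 95% intervals from the standard errors implied by the deposited p-values; red points were called at q at or under 0.05 and open points were not. CHLH lies to the right of 0 and GLK2 and PORC to the left in the comparisons of genotypes within a medium where they were tested, and HEMA1 stays within 0.35 of 0.

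Read by comparison, none of the 4 tested members was called for cytokinin in wild type (Cuffdiff's test; CHLH was the 1 member with an unadjusted p under 0.05), where 10.3% of all 18827 tested features were called, 6.58% higher and 3.71% lower. The 95% intervals reached -1.11 for GLK2, -0.84 for CHLH, -0.32 for HEMA1 and 0.67 for PORC. In the groups labelled CPL4RNAi 1 of 3 tested members was called, PORC, which was higher, against 17.3% of all features (8.42% higher and 8.88% lower). Between genotypes without cytokinin 3 of 4 were called, where 44.1% of all features were: CHLH higher (22.5% of all features were called higher) and GLK2 and PORC lower (21.5% lower). GLK2 was tested there only through wild type without cytokinin, the group where it is highest, so the count of 3 of 4 includes a member that entered by that group; of the 3 members tested in all comparisons, CHLH and PORC were called and HEMA1 was not. With cytokinin 2 of 3 were called, CHLH higher and PORC lower, where 49.4% of all features were called, 24.7% in each direction.

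Of the 2 comparisons that changed both factors, 1 gave larger differences for CHLH and PORC than the genotype comparisons within a medium and the other gave smaller ones. Between CPL4RNAi without cytokinin and wild type with it, CHLH was higher by 1.45 (SE at most 0.36) and PORC lower by 1.12 (SE at most 0.28), and HEMA1 was not called, so 2 of 3 tested members were called against 44.0% of all features (21.4% higher and 22.6% lower). Between CPL4RNAi with cytokinin and wild type without it, CHLH was higher by 0.64 (SE 0.19) and GLK2 and HEMA1 were lower by 1.35 (SE 0.49) and 0.35 (SE 0.12). PORC differed there by -0.22 (SE 0.19, 95% interval -0.59 to 0.14), which was not called, so 3 of 4 tested members were called against 51.6% of all features (26.4% higher and 25.2% lower). Here too GLK2 was tested only through wild type without cytokinin, its highest group. Of the 3 members tested in all comparisons, CHLH and HEMA1 were called and PORC was not. These comparisons share groups with the 4 above and are not independent of them.

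Whether cytokinin acted differently in the 2 genotypes was tested on the CPL4RNAi effect minus the wild-type effect, with the variance recovered from the deposited p-values, with Benjamini-Hochberg adjustment over 18514 genes. It could be tested for 3 members and was called for none of them, against 2.48% of all genes (0.470% higher and 2.01% lower). The difference was 0.24 for PORC (SE 0.27, 95% interval -0.29 to 0.77), 0.07 for CHLH (SE 0.27, interval -0.45 to 0.59) and -0.06 for HEMA1 (SE 0.16, interval -0.38 to 0.26). At an unadjusted p, the smallest of the 3 was 0.38, for PORC. PORC passed the threshold for cytokinin in one genotype and not in the other, and this test did not show that its effects differ.

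The other genes of the pathway were read step by step. Of 16 other genes for ALA synthesis and the common steps, 15 were tested between genotypes. None was called for cytokinin (14 tested in wild type and 15 in CPL4RNAi), beside 10.3% and 17.3% of all features. Without cytokinin 2 were higher and 1 (HEME1) lower in CPL4RNAi, and in treated explants 3 were higher and 0 lower. Over all features 22.5% were called higher and 21.5% lower without cytokinin, and 24.7% each with it. The reductase gene HEMA3 went from 0.341 to 1.51 FPKM without cytokinin (2.15, SE at most 0.53) and from 0.696 to 1.77 FPKM with it (1.35, SE 0.35). HEMA3 was not tested between the wild-type groups, so it entered the counts of higher genes only through the CPL4RNAi groups, where it is higher. GSA2, for the aminotransferase that forms ALA, was higher by 0.48 (SE 0.12) and 0.54 (SE at most 0.13). The median difference of the list was 0.05 without cytokinin and 0.03 with it, beside 0.00 and 0.01 over all tested features.

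Of 9 other enzymes of the chlorophyll branch, all tested, 4 were lower in the groups labelled CPL4RNAi both without and with cytokinin, namely CHLD, CHLM, CAO and CHLP. Over all features 21.5% were called lower without cytokinin and 24.7% with it. CHLM, the methyltransferase after magnesium chelatase, went from 19.7 to 9.06 FPKM without cytokinin (-1.12, SE at most 0.28) and from 19.2 to 7.61 FPKM with it (-1.34, SE at most 0.33). CAO, which makes chlorophyll b, was lower by 0.77 and 1.03 (SE no more than 0.19 and 0.25). CHLP, which reduces the geranylgeranyl group used for the phytol tail, was lower by 0.95 and 0.85 (SE no more than 0.23 and 0.21). CHLG, for chlorophyll synthase, was higher without cytokinin, by 0.64 (SE 0.23; q = 0.020), and differed by 0.15 (SE 0.22) with it. The other 4 (CHLI1, CHLI2, CRD1 and DVR) were not called in either medium. The list's median difference was -0.04 without cytokinin and 0.11 with it, so its middle gene did not move with the 4 that were lower. None of the 9 was called for cytokinin in either genotype, beside 10.3% of all features in wild type and 17.3% in CPL4RNAi.

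**Figure D3:**
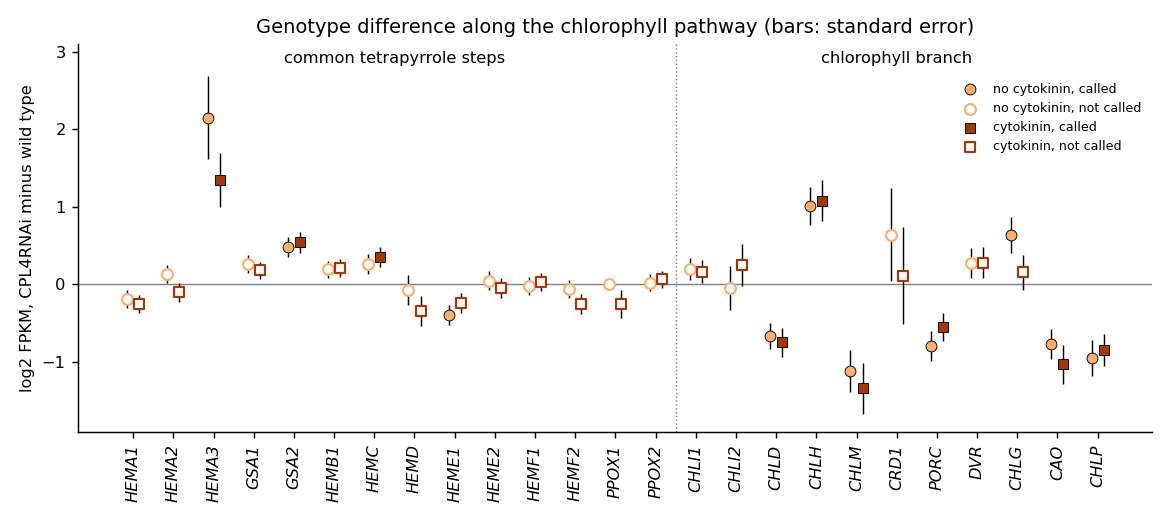
Log2 FPKM difference between the groups labelled CPL4RNAi and wild type (vertical axis) for 25 genes in pathway order, without cytokinin (circles) and with it (squares); filled symbols were called, open symbols were not, and bars are standard errors, at their upper limit where the p-value is the table's smallest and absent where the p-value is too close to 1 to give one. Most of the common steps lie near 0, with HEMA3 the highest at 2.15 and 1.35. In the chlorophyll branch CHLH lies at 1.01 and 1.08, and CHLD, CHLM, PORC, CAO and CHLP lie between -0.55 and -1.34. The other branch genes, CHLI1, CHLI2, CRD1, DVR and CHLG, lie between -0.04 and 0.64.

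Of 6 tested heme and bilin genes, 2 were higher and 1 lower in untreated CPL4RNAi, and 2 were higher and 2 lower in treated CPL4RNAi, counts near the shares over all features (22.5% and 21.5%, and 24.7% each). HY2, which makes the phytochrome chromophore, was lower by 0.76 in each medium (SE at most 0.19), and UPM1, at the branch to siroheme, was higher by 0.43 (SE 0.11) and 0.39 (SE 0.11). Among 9 tested genes of chlorophyll breakdown and of the chlorophyll b to a conversion, 6 were lower and 1 higher in untreated CPL4RNAi, and 7 were lower and 1 higher in treated CPL4RNAi; 6 were lower in both. Their median difference was -0.56 and -0.48. SGR2, a STAY-GREEN gene, went from 8.58 to 3.64 FPKM without cytokinin (-1.24, SE at most 0.31) and from 8.995 to 3.34 FPKM with it (-1.43, SE at most 0.35). HCAR, a reductase that returns chlorophyll b to a, was lower by 0.88 and 0.86, and ACD2, which reduces a chlorophyll catabolite, was higher by 0.71 and 0.37. In wild type cytokinin raised CLH2, a chlorophyllase gene, by 0.68 (SE 0.22) and ACD2 by 0.33 (SE 0.14), and none of the 9 was called for cytokinin in the groups labelled CPL4RNAi. Over all features 10.3% were called for cytokinin in wild type and 17.3% in CPL4RNAi.

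Of 15 tested light and plastid signalling genes, 6 were lower and 0 higher in untreated CPL4RNAi, and 7 were lower and 0 higher in treated CPL4RNAi. Of these, 5 were lower in both. Over all features 21.5% were called lower and 22.5% higher without cytokinin, and 24.7% each with it. PIF1, a repressor of chlorophyll synthesis genes in the dark, went from 1.19 to 0.483 FPKM without cytokinin (-1.31, SE 0.36) and from 0.892 to 0.326 FPKM in treated explants (-1.45, SE 0.41). PIF1 was not tested between the CPL4RNAi groups, so it entered the counts of lower genes only through the wild-type groups, where it is higher. BBX21, an activator of HY5, differed by -0.47 (SE 0.12) and -0.59 (SE at most 0.15). HY5 itself had 28.2 and 25.8 FPKM in wild type without and with cytokinin and 26.5 and 20.03 FPKM in the groups labelled CPL4RNAi. With cytokinin it fell by 0.40 (SE 0.13) in the groups labelled CPL4RNAi, where PIF3 rose by 0.43 (SE 0.18). HYH, its close relative, was lower by 0.64 (SE 0.26) in the groups labelled CPL4RNAi with cytokinin. For cytokinin 0 of 15 were called in wild type, beside 10.3% of all features. In CPL4RNAi 1 of 14 was called higher and 1 lower, beside 8.42% and 8.88% of all features. Of 6 tested genes for plastid sigma factors and the nuclear-encoded plastid polymerase, 3 were lower and 1 higher without cytokinin, and 2 were lower with it. The same shares over all features stand beside these counts. SIG6 and RPOTp were lower by 0.52 (SE 0.17) and 0.49 (SE at most 0.12) without cytokinin, and SIG5 and SIG3 by 0.81 each with it (SE 0.23 and 0.21). Cytokinin lowered SIG5 by 0.69 and SIG3 by 0.58 in the groups labelled CPL4RNAi.

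**Figure D4:**
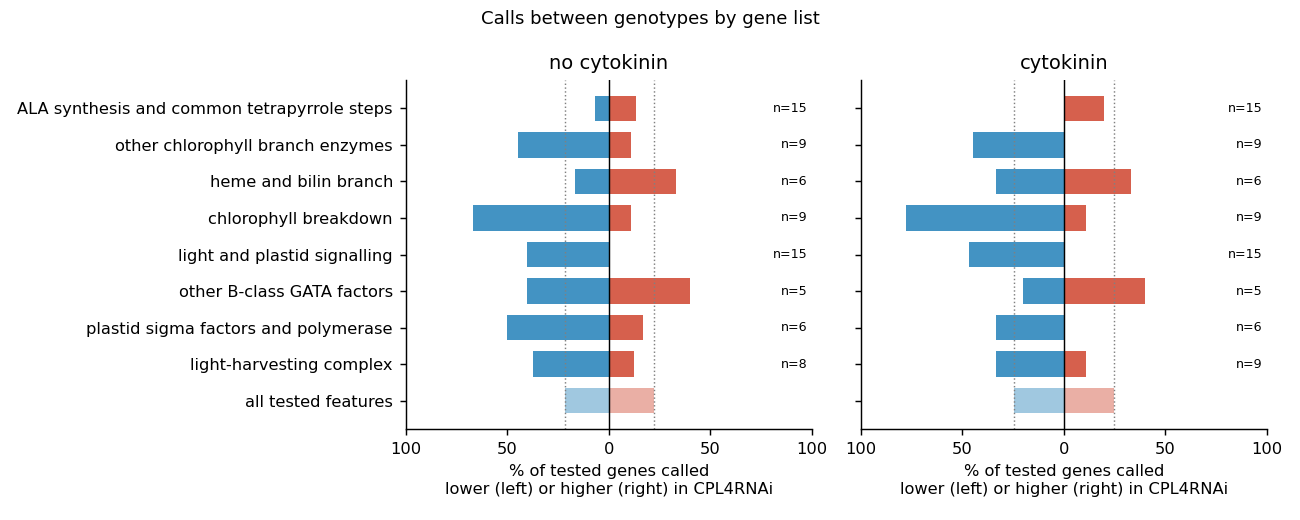
Percentage of the tested genes of each list that were called lower (blue, to the left) or higher (red, to the right) in the groups labelled CPL4RNAi, without cytokinin (left panel) and with it (right panel), with the number tested at the right; the pale bars and dotted lines give the same percentages over all tested features. Without cytokinin 6 of 9 chlorophyll breakdown genes and 4 of 9 chlorophyll branch enzymes were called lower, beside 21.5% of all features.

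The light-harvesting genes are known targets of the GLK factors. Of 18 genes, 10 stayed under 1 FPKM in every group, 2 of them listed at 0 throughout, and 9 were tested in at least 1 comparison. LHCB4.1 was the most abundant, at 24.7 and 25.8 FPKM in wild type without and with cytokinin and at 10.6 and 9.89 FPKM in the groups labelled CPL4RNAi. LHCA2 was lower in the groups labelled CPL4RNAi by 2.49 (SE 0.64) and 3.22 (SE 0.83), whereas LHCB5 was higher by 1.59 (SE at most 0.39) and 1.47 (SE 0.40). LHCA2 was not tested between the CPL4RNAi groups, so its tests came only through the wild-type groups, where it is higher. None of the light-harvesting genes tested was called for cytokinin, beside 10.3% of all features in wild type and 17.3% in CPL4RNAi. Of 10 Rubisco small subunit and photosystem genes, 7 stayed under 1 FPKM in every group, among them all 4 genes of the Rubisco small subunit, and PSBO1, of the oxygen-evolving complex, was lower by 0.85 and 1.22 in the groups labelled CPL4RNAi. PSAF, of photosystem I, was higher by 0.48 (SE 0.17) with cytokinin. Features of the plastid genome made up between 2.35% and 2.74% of the summed FPKM of a group, and 13 of 61 tested were higher and 6 lower in untreated CPL4RNAi, and 22 were higher and 1 lower in treated CPL4RNAi, beside 22.5% higher and 21.5% lower over all features in the first comparison and 24.7% each in the second.

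Markers of other tissues moved with genotype beside these differences. The summed level of the 8 shoot meristem and leaf markers was 18.4 FPKM in each wild-type group. It was 72.2 and 81.6 FPKM in the groups labelled CPL4RNAi without and with cytokinin. Of 5 tested, 4 were higher and 1 lower without cytokinin, and 3 were higher and 1 lower with it. Over all features 22.5% were called higher and 21.5% lower without cytokinin, and 24.7% each with it. WUS, the stem cell organizer gene, was listed at 0 in both wild-type groups and stood at 1.32 and 1.28 FPKM in those labelled CPL4RNAi. CUC1, a boundary gene, was higher by 3.24 and 3.75 (SE no more than 0.80 and 0.92). STM and WUS were not tested between the wild-type groups. They entered the counts only through the CPL4RNAi groups, where they are high. The root markers had 2 of 7 tested higher and 3 lower without cytokinin, WOX5 among the latter at -1.49 (SE at most 0.37), whereas the endodermal gene CASP1 was higher by 1.55 (SE at most 0.38). Cytokinin lowered 5 of 7 tested root markers in wild type and 5 of 8 in CPL4RNAi, beside 3.71% and 8.88% of all features. CASP1 differed by -2.27 in wild type and -1.88 in CPL4RNAi, the root cap gene SMB by -0.61 in wild type and PLT2 by -0.42 in CPL4RNAi. SMB was higher by 1.94 in treated CPL4RNAi than in treated wild type. The 6 markers of the stomatal lineage and shoot epidermis summed to 34.4 and 25.4 FPKM in wild type and to 15.8 and 12.8 FPKM in the groups labelled CPL4RNAi, and the epidermal gene PDF1 differed by -1.46 and -1.21. ATML1, another epidermal gene, differed by -0.35 between the treated genotypes, and with cytokinin it was lower by -0.48 in wild type and -0.53 in CPL4RNAi and PDF1 by -0.42 in wild type, while CUC1 was higher by 0.45 in CPL4RNAi. The part of these tissue differences in the values of CHLH, PORC and GLK2 was not tested, and in bulk RNA fewer cells of a type cannot be told apart from less RNA per cell.

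The genes whose 4 group levels ran most like those of each member above 0 in all groups were sought among 17382 genes that reached 1 FPKM in all 4 groups. The measure was the root mean square difference of log2 FPKM centred on each gene's mean. The measure rests on 4 points a gene and carries no test. For PORC the nearest were AT5G38200, AT1G22440 and MAKR6, at 0.035, 0.047 and 0.047. For CHLH they were AT4G17100, CB5-C and ACO1, at 0.047, 0.049 and 0.057. For HEMA1 they were AT4G27840, SS3 and AT1G51550, at 0.0053, 0.0085 and 0.0093. For GLK2, which was under 1 FPKM in every group, they were GSTF4, UBC17 and TCP24, at 0.053, 0.093 and 0.10. Between members the closest pair of tested genes was HEMA1 and PORC at 0.38, and CHLH lay 0.96 from PORC and 1.17 from GLK2. The neighbours were picked as the nearest of 17382 genes, so their distances cannot be set against those of member pairs. Of the untested members, also under 1 FPKM and above 0 in all groups, GLK1 lay nearest to MSL9, ALS3 and ABCC10 (0.013 to 0.048). PORA lay nearest to AT1G36622, RTFL15 and AT1G29270 (0.039 to 0.054) and PORB to AT4G12870, PFA-DSP2 and AT1G73600 (0.19 to 0.27).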

How the data were processed

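Total RNA was sequenced as stranded, ribosomal RNA-depleted paired-end libraries, per the labels' protocols. Per the submitters' processing notes the tools were bcl2fastq 2.17.1.14, TopHat2 2.0.14 and Cuffdiff 2.2.1.3 with TAIR10. The authors deposited 1 FPKM per group, and a p-value and q-value for each of 6 pairs of groups, per the file headers. The q-value equalled a Benjamini-Hochberg adjustment over all 115069 tests (largest difference 5.3e-07), and 86270 entries were not tested.

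Log2 ratios were computed from group FPKM without a pseudocount. A standard error was the ratio's size over the normal quantile of its p-value (at most 0.95), and an upper limit at the smallest p-value, 5e-05. Such errors carry Cuffdiff's own model of the variance. For the difference of cytokinin effects, the variance of the 4 groups was recovered from disjoint pairs, leaving out 476 genes whose pairs differed by more than 10.0%; 1472 of 18514 genes had only an upper limit. The procedure was run on simulated data whose p-values came from the same normal model, with equal errors in the 4 groups of a gene. That run cannot tell whether Cuffdiff's p-values follow the model.

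Members, lists and tests were chosen with earlier results of these data known. Named were all members and, per list and comparison, the 2 called genes with the largest ratio at 1 FPKM or more, plus CPL4, the 3 nearest patterns per member, and genes completing a short count or belonging to a member's step, chosen after their values were seen. Promoters and coding sequences come from RefSeq TAIR10.1, in which all 26687 nuclear protein-coding genes compared (100.0%) overlapped their deposited locus. Of these genes 41.1% shared a start or end with it, so the promoter windows and motif counts depend on the annotation used. The planned protein comparison was replaced by one of coding sequences. Python 3.11.15, numpy 2.4.6, pandas 2.3.3, SciPy 1.17.1, Biopython 1.88 and matplotlib 3.10.9 were used. Alternatives covered the q threshold, adjustment, a 2-fold minimum, a pseudocount, an FPKM minimum, gene class and recentring.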

Additional observations from a re-analysis of the deposited data

How the results depend on the processing

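Of 154 recomputed values for the members, 145 kept direction and call, 8 lost the call, 1 gained it and 0 reversed. Part of this was fixed by the settings. Only recentring could reverse a direction. The pseudocount left the q-values as they were, and the stricter q and the 2-fold minimum could only remove calls. At a q of 0.01, PORC lost its cytokinin call in CPL4RNAi, leaving 0 members called there, and GLK2 lost its calls. With a 2-fold minimum the members called fell to 0 for cytokinin in CPL4RNAi and to 2 and 1 for the genotypes without and with cytokinin. PORC lost its genotype call in both media. For CPL4RNAi with cytokinin against wild type without, the members called fell to 1. Recentring on the median gave 2 for cytokinin in CPL4RNAi, since CHLH (-0.39) joined PORC. With a pseudocount of 1 FPKM the genotype difference without cytokinin became -0.50 for GLK2 and 0.56 for CHLH. GLK2, under 1 FPKM throughout, gave no value under the FPKM minimum. Over all features, the cytokinin calls of 1938 in wild type and 3313 in CPL4RNAi became 1262 and 2118 at a q of 0.01, and 518 and 669 with a 2-fold minimum, which also took the genotype calls from 8492 and 9493 to 2272 and 2519. For the other pairs the 2-fold minimum took 9949 and 8499 calls to 2931 and 2423. The 460 calls on the difference of cytokinin effects became 151 with solved standard errors alone and 222 at an adjusted p of 0.01. No paired analysis was possible because the table holds no values per replicate, and leaving out each replicate was not run for the same reason. Depth is unknown, so no counting interval or detection limit can be given for a level.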
